A study of Rattus norvegicus with 7 samples.

Results

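The interferon-stimulated genes described here are 34 genes that cells switch on after an interferon signal, given by name, and each was found once by its symbol among the 20660 genes of the deposited table. Expression was measured by RNA-seq of synovium, the soft tissue that lines a joint, from 3-month-old male SD rats. The MIA group held 4 rats (numbered 1 to 4 in the labels) whose right knee joint had been given MIA at 10 mg/kg in a volume of 0.1 mL, as a model of knee osteoarthritis. MIA is an abbreviation of the labels, which give no full name; monosodium iodoacetate, which blocks glycolysis, is the agent commonly so called in this kind of model. The control group held 3 rats (numbered 2, 3 and 4) with no treatment, so no rat received a vehicle injection and the effect of an injection as such cannot be told apart from that of MIA. Tissue was taken after 4 weeks, with 1 library per rat. The comparison asks how the transcriptome of injected joints differed from that of untreated ones.

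Interferons are secreted proteins that warn neighbouring cells of infection or of misplaced nucleic acid. Type I interferons and interferon gamma bind separate receptors, whose JAK kinases phosphorylate STAT proteins; STAT proteins together with IRF9 bind the interferon-stimulated response element in the promoters of target genes, and pairs of STAT proteins bind the gamma-activated site. The targets include sensors of viral RNA, proteins that block viral replication, and the factors of the pathway itself, and the genes tend to rise together. In joints, raised levels of these genes are known from the synovium of some patients with inflammatory arthritis.

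Total counts ran from 13870822 to 16261089 per library, and 14054 genes passed the filter on low counts, all 34 interferon-stimulated genes among them. Levels are CPM (counts scaled to the library total adjusted by TMM factors), and changes are log2 differences of MIA minus control from the edgeR quasi-likelihood test, with p-values adjusted over all 14054 genes by the Benjamini-Hochberg method and called under 0.05. The libraries differed in tissue makeup. Summed skeletal muscle markers (20 genes, 6 called lower) held 163000 to 205000 CPM in controls and 819 to 40500 CPM in MIA, with MIA 2 lowest. The 8 macrophage markers (6 called higher) summed to 195 to 265 CPM in controls and 427 to 1070 CPM in MIA. The 6 neutrophil markers (4 called higher) summed to 11.9 to 16.8 CPM and 26.5 to 579 CPM, with MIA 3 highest, and no marker list summed to 0 in any control. Markers of the synovial lining were present in every library (5 genes, Htra1 called higher and Clic5 called lower). They summed to 2160 to 5000 CPM in controls and 1150 to 6750 CPM in MIA, led by Prg4 at 185 to 4842 CPM in MIA. In whole tissue, a higher level from more cells of a type and from more RNA per cell cannot be told apart. Control 3 and MIA 3 stood apart in the genes described here, as the values by library show.

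A core of the response element was found in the promoter windows of many of these genes, but not all. RefSeq promoter windows of the GRCr8 assembly, from 250 bases before to 50 bases after each start, were matched by symbol for 24 of the 34 genes. The 9-letter core GAAANNGAA of the response element, searched on both strands, lay in 15 of these 24 windows (62.5%), against 9.71% of all 33469 windows in the table and 7.29% of the 10185 windows of tested genes. The gamma-activated site TTCNNNGAA, which reads the same on both strands, lay in 5 of the 24 (20.8%), against 8.87% and 6.56%; Irf1, Irf9, Oas1a, Parp14 and Bst2 hold it. Of the 5 genes that rose 4 have a window, and of these Parp14 holds both motifs while Stat2, Trim25 and Parp9 hold neither. A match describes the letters of a window and is not evidence of binding in these rats. The cores nearest to the start of 8 genes are shown because they make the shared element visible, each on the strand that reads GAAANNGAA, with the core in capitals and coordinates on GRCr8.
Ifit3 (chr1:241527296-241527316): gtttgtGAAAGGGAAgtggaa
Ifi27 (chr6:128355222-128355242): gctgggGAAATGGAAacttac
Irf7 (chr1:205800077-205800097): tctcggGAAAATGAAacctaa
Oas1a (chr12:41330425-41330445): gaaatgGAAACTGAAaatctt
Gbp2 (chr2:234005691-234005711): gacaatGAAAGTGAAactaaa
Ifih1 (chr3:67684013-67684033): agaatcGAAACAGAAaccgat
Eif2ak2 (chr6:21941132-21941152): cgccggGAAAACGAAacagag
Parp14 (chr11:78408052-78408072): ggaaatGAAAGTGAAagaagt

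Promoters of 2 genes are given whole, on the strand of the gene (plus in both cases), with response element cores and gamma-activated sites in capitals. Ifit3 is shown for its 2 cores, both on the opposite strand, at positions −43 and −24 from the start, and Parp14 for holding a gamma-activated site next to a core at position −76.
Ifit3 (chr1:241527076-241527375): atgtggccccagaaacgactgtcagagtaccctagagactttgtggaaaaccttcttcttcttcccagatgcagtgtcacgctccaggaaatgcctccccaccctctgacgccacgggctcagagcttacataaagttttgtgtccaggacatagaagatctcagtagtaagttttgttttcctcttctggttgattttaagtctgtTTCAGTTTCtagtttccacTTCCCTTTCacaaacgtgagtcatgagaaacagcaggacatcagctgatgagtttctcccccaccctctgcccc
Parp14 (chr11:78407884-78408183): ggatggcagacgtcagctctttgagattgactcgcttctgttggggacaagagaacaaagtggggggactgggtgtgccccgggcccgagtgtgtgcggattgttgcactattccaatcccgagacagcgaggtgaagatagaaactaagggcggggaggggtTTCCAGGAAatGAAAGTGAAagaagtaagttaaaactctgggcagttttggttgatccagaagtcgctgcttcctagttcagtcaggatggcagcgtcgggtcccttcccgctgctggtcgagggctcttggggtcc

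Levels per gene length differed widely among the 34 genes. On the scale of CPM per kilobase, Ifi27, which encodes a small hydrophobic protein, was highest, at 280.5 ± 95.5 (SD, n = 3) in controls and 448 ± 133 (SD, n = 4) in MIA. Bst2, which encodes the virus-tethering surface protein tetherin, came next at 86.7 ± 27.1 and 75.7 ± 17.9, followed by Irf7 (36.0 ± 24.1 and 56.4 ± 26.5) and Gbp2 (18.9 ± 7.55 and 32.3 ± 11.2). Ifi27 lay above Bst2 in every library, 181 to 644 against 54.5 to 109 CPM per kilobase, whereas Irf7 overlapped Gbp2, its neighbour in this order. From rank 4 to rank 20 the means over all libraries lay between 26.6 (Gbp2) and 8.97 (Adar), and neighbours in that order overlapped. Zbp1 was lowest, at 0.656 ± 0.926 and 1.96 ± 1.50 CPM per kilobase.

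Most of the genes had a positive change after MIA, but few passed the test. The change was above 0 for 29 of the 34 genes, with a median log2 change of 0.62 (range −0.53 to 1.59) beside 0.07 over all tested genes. Stat2, Adar, Trim25, Parp9 and Parp14 rose (5 of 34, 14.7%), where 21.3% of all tested genes were called higher. No gene of the list was called lower, where 19.6% of all tested genes were, and DESeq2 and limma-voom also called 0 lower. At an unadjusted p under 0.05 the edgeR counts were 9 higher and 0 lower of the 34. Of all 14054 tested genes 3738 were higher and 3378 lower at that threshold. The share higher was thus close to that of all tested genes. All MIA libraries lay above all control libraries for 7 genes (20.6%; 24.8% of all tested genes), the 5 that rose plus Irf9 and Eif2ak2, and below them for 0 genes (24.4% of all tested genes). In this fit the share called was below that of all tested genes. With library totals in place of TMM factors the median of all tested genes moved from 0.07 to 0.51 and 13 of the 34 genes were called higher, beside 37.4% of all tested genes; relative to the median of all genes, the median of the 34 was 0.55 under both scalings. The count depended on single controls. Without control 3, 8 of the 34 genes (23.5%) were called higher, beside 12.2% of all tested genes. Without control 2 and without control 4 the counts were 2 (5.88%, beside 16.3%) and 1 (2.94%, beside 11.3%). Leaving out MIA 1, 2 or 3 gave 4 genes (11.8%) beside 18.2%, 20.2% and 21.3% of all tested genes, and leaving out MIA 4 gave 5 (14.7%) beside 20.6%. Without control 3 and MIA 3 together, an alternative added after the data were seen, 8 were called (23.5%, beside 12.3%), 3 of them among the 5. The share called was thus above or below that of all tested genes depending on which library was left out.

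**Figure D1:**
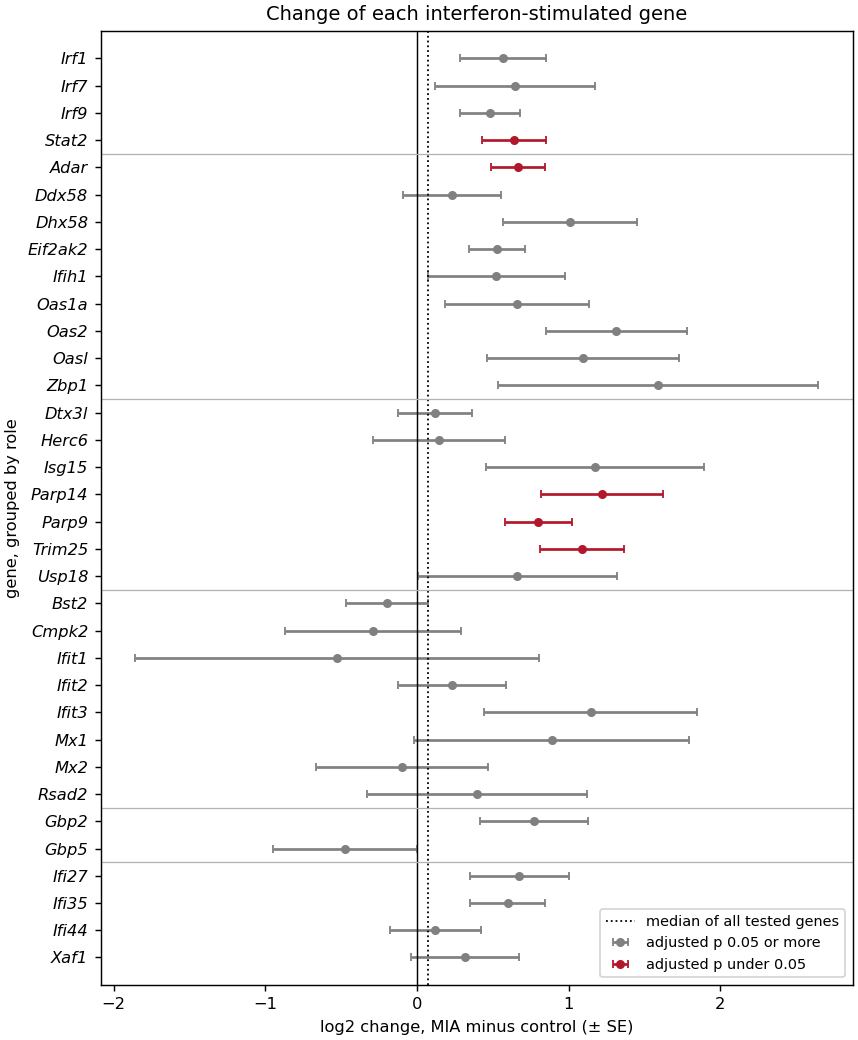
Log2 change of each interferon-stimulated gene, MIA minus control, with its standard error (x axis), genes grouped by role (y axis; from top: transcription factors, sensors, ISG15 and ADP-ribose enzymes, antiviral effectors, guanylate-binding proteins, others). Stat2, Adar, Parp14, Parp9 and Trim25 (red) passed the test; Isg15, Mx1, Ifit3 and Zbp1 have changes above that of Stat2 (0.64) with wider errors, and the dotted line is the median of all tested genes, 0.07.

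**Figure D2:**
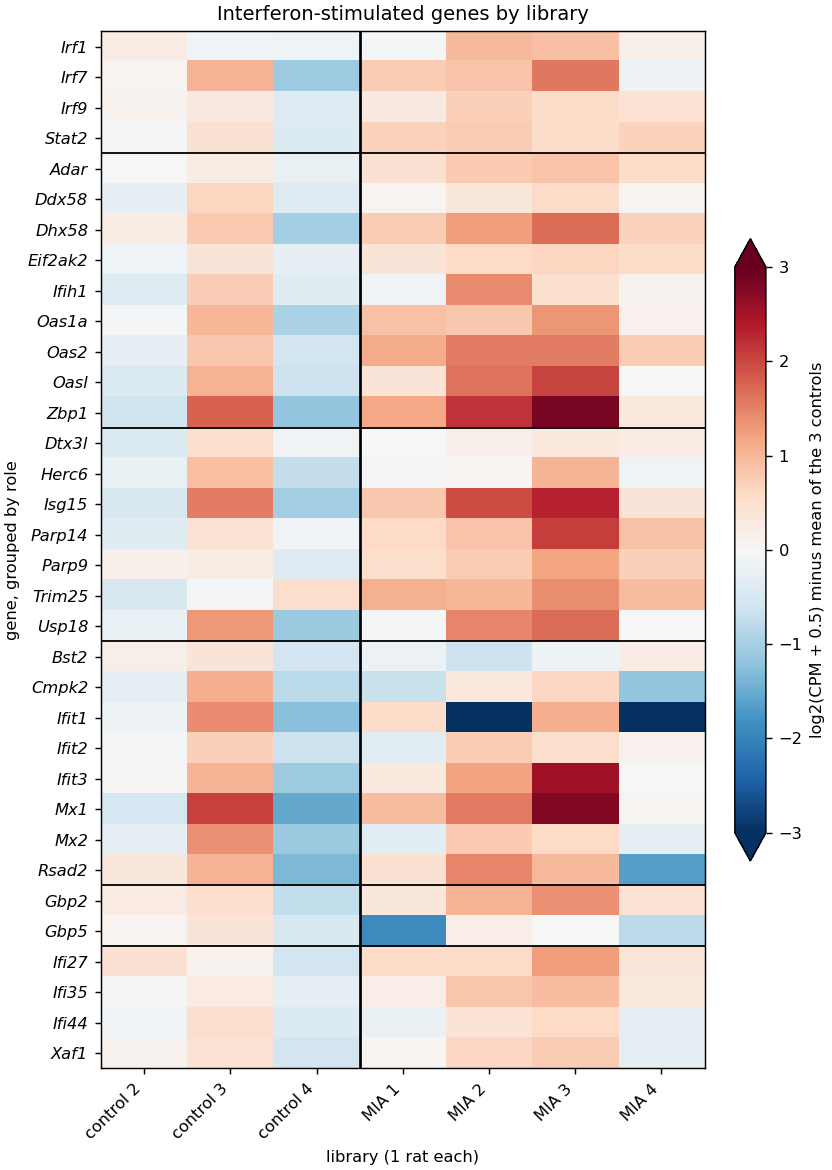
Level of each interferon-stimulated gene (rows, grouped by role) in each library (columns), as log2(CPM + 0.5) minus the mean of the 3 controls. Control 3 is above and control 4 below the control mean in most rows, MIA 3 has the highest levels of most genes, and Ifit1 is far below the other libraries in MIA 2 and MIA 4.

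The transcription factors of the pathway had similar changes, of which that of Stat2 passed. Stat2 (ENSRNOG00000031081), the STAT protein of the type I interferon response, was at 46.1, 64.8 and 35.1 CPM in control 2 to 4 and 76.2, 80.4, 69.9 and 77.0 CPM in MIA 1 to 4. Every MIA rat was above every control rat, and the 4 MIA rats lay close together (coefficient of variation 5.74%, against 30.8% in controls). The difference was 1.56-fold (log2 change 0.64 ± 0.21 SE, adjusted p = 0.0417), and the call was lost without any one library except control 3, at adjusted p of 0.119 and 0.152 without control 2 and control 4 and 0.0513 to 0.0729 without one MIA library. Irf9, its DNA-binding partner, was at 31.0, 34.6 and 21.9 CPM in control 2 to 4 and 34.6, 47.6, 42.0 and 38.8 CPM in MIA 1 to 4. The groups did not overlap, but the lowest MIA rat and the highest control nearly coincided, and the change of 0.48 ± 0.20 did not pass (adjusted p = 0.0833). Irf1, a factor induced chiefly by interferon gamma, had values of 24.1 to 30.9 CPM in controls, with MIA 2 and MIA 3 at 53.0 and 49.9 CPM and MIA 1 and MIA 4 inside the control range (log2 change 0.57 ± 0.28 SE, adjusted p = 0.138). Irf7, the factor that amplifies type I interferon production, spanned 27.8 to 122 CPM in controls and 53.5 to 180.5 CPM in MIA, so that the groups overlapped widely (log2 change 0.65 ± 0.53 SE, adjusted p = 0.350). With library totals Irf9 and Irf1 were also called (adjusted p = 0.0115 and 0.0297).

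Among sensors of foreign or misplaced RNA and DNA, the RNA-editing enzyme gene rose. Adar (ENSRNOG00000020744), which converts adenosine to inosine in double-stranded RNA and so keeps cellular RNA from setting off the sensors, was at 24.2, 28.1 and 20.4 CPM in control 2 to 4 and 33.1, 41.8, 43.7 and 35.3 CPM in MIA 1 to 4. All MIA rats exceeded all controls, and the rise was 1.59-fold (log2 change 0.67 ± 0.18 SE, adjusted p = 0.0183). It was lost without control 2 (adjusted p = 0.0527) and without control 4 (0.0828). Eif2ak2, the kinase PKR that stops translation on double-stranded RNA, was at 34.3, 49.0 and 31.5 CPM in control 2 to 4 and 49.0, 56.9, 59.3 and 55.6 CPM in MIA 1 to 4. Control 3 reached 49.04 CPM, just under the lowest MIA rat, and the change missed the threshold (log2 change 0.53 ± 0.19 SE, adjusted p = 0.0512); it was called with library totals (adjusted p = 0.00629) and without control 3 (0.0261). Oas2, one of the synthetases whose product activates the ribonuclease RNase L, was at 1.75, 4.23 and 1.31 CPM in control 2 to 4 and 5.33, 7.40, 7.37 and 4.01 CPM in MIA 1 to 4. MIA 4 fell below control 3 and the other MIA rats lay above it (log2 change 1.31 ± 0.47 SE, adjusted p = 0.0522). DESeq2 called Oas2 (adjusted p = 0.0183), as did edgeR without control 3 (0.0213).

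The cytoplasmic RNA helicases did not pass. Ddx58, which encodes RIG-I, had a change of 0.23 ± 0.32 (adjusted p = 0.590), Ifih1, which encodes MDA5, one of 0.52 ± 0.45 (0.379), and Dhx58, which encodes their regulator LGP2, one of 1.01 ± 0.44 (0.0994). With library totals Dhx58 was called (adjusted p = 0.0336), while Ddx58 and Ifih1 were called in none of the alternatives. For Ifih1 the high value was in MIA 2 (31.6 CPM, against 10.5 to 16.3 CPM in the other MIA rats), not in MIA 3. Zbp1, a sensor of Z-form nucleic acid that can trigger necroptosis, had the largest change of the 34 genes and the widest spread in controls, at 0.491, 4.58 and 0.164 CPM in control 2 to 4 and 2.81, 6.26, 10.3 and 1.37 CPM in MIA 1 to 4. Control 3 alone was above MIA 1 and MIA 4, and counts in control 2 and control 4 were 7 and 2 (log2 change 1.59 ± 1.06 SE, adjusted p = 0.256; without control 3, 3.92 with adjusted p = 0.0343). Oas1a (0.66 ± 0.48) and Oasl (1.10 ± 0.63) did not pass either (adjusted p = 0.293 and 0.196). Oas1a sits in a cluster of similar Oas1 genes, so its counts may be shared with those copies.

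Of the genes for ISG15, its enzymes and the ADP-ribose enzymes, 3 of 7 rose, beside 14.7% of the 34 genes and 21.3% of all tested genes. Trim25 (ENSRNOG00000002341), a ubiquitin ligase that activates RIG-I, was at 5.75, 7.84 and 12.1 CPM in control 2 to 4 and 17.6, 16.7, 22.3 and 16.4 CPM in MIA 1 to 4. All MIA rats were above all controls, control 4 was the highest control, as in no other of the 34 genes, and the rise was 2.13-fold (log2 change 1.09 ± 0.28 SE, adjusted p = 0.0153); it was lost without control 3 (adjusted p = 0.0637) and was the single call of the 34 left without control 4. Parp9 (ENSRNOG00000023463), an ADP-ribosyltransferase that works in a complex with the ubiquitin ligase encoded by Dtx3l, was at 44.3, 47.0 and 30.5 CPM in control 2 to 4 and 57.6, 67.5, 91.7 and 65.9 CPM in MIA 1 to 4. The groups did not overlap (1.74-fold; log2 change 0.80 ± 0.22 SE, adjusted p = 0.0217), and the call was lost without control 4 (0.0911). Parp14 (ENSRNOG00000023334), a larger enzyme of the same family, was at 9.67, 17.1 and 11.8 CPM in control 2 to 4 and 19.0, 23.0, 54.1 and 23.5 CPM in MIA 1 to 4. MIA 3 held more than 2 times the level of any other library, and the other MIA rats lay close above control 3 (2.33-fold; log2 change 1.22 ± 0.40 SE, adjusted p = 0.0397). Its call was lost without any one control (adjusted p = 0.124, 0.0562 and 0.126 without control 2, 3 and 4).

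Parp9, Dtx3l and Parp14 lie side by side on rat chromosome 11 in RefSeq, and Dtx3l was not called (log2 change 0.12 ± 0.24, adjusted p = 0.714). It was at 13.0, 26.0 and 16.4 CPM in control 2 to 4 and 17.7, 19.8, 22.2 and 20.6 CPM in MIA 1 to 4, so control 3 was above every MIA rat; whether Dtx3l differs from its neighbours in its response was not tested. Isg15, the ubiquitin-like protein after which the group is named, was at 6.03, 25.9 and 3.93 CPM in control 2 to 4 and 15.6, 35.2, 45.1 and 11.5 CPM in MIA 1 to 4. Control 3 exceeded MIA 1 and MIA 4, and MIA 2 and MIA 3 were above all controls (log2 change 1.17 ± 0.72 SE, adjusted p = 0.219; 2.42 with adjusted p = 0.0330 without control 3). Usp18, the protease that removes ISG15 and dampens the type I receptor, also had control 3 above MIA 1 and MIA 4, and ranged from 5.90 to 33.6 CPM in controls and 13.0 to 43.4 CPM in MIA (log2 change 0.66 ± 0.66 SE, adjusted p = 0.444). Herc6, the main ligase for ISG15 in the mouse, had a change of 0.15 ± 0.44 (adjusted p = 0.807), with MIA 3 at 37.7 CPM and the other MIA rats at 17.2 to 19.1 CPM. Among these genes only Isg15, Usp18, Parp14 and Herc6 have a fold range above 2 within the MIA group.

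None of the 8 antiviral effector genes passed, where 21.3% of all tested genes were called higher and 19.6% lower. Their changes fell on both sides of 0, from −0.53 to 1.15 with a median of 0.07. Mx1, a dynamin-like GTPase that blocks influenza-type viruses, was at 11.4, 70.9 and 5.40 CPM in control 2 to 4 and 31.8, 50.3, 116 and 17.6 CPM in MIA 1 to 4. The range within controls was 13.1-fold, and control 3 was above every MIA rat except MIA 3 (log2 change 0.89 ± 0.91 SE, adjusted p = 0.456). Without control 3 the change of Mx1 was 2.67 and was called (adjusted p = 0.0494). Its paralog Mx2 had a change near 0 (log2 change −0.10 ± 0.57 SE, adjusted p = 0.902), which turned positive with library totals (0.36) and with limma-voom (0.21). Rsad2, the enzyme viperin that makes a chain-terminating nucleotide, ranged from 5.90 to 32.0 CPM in controls and from 4.64 to 44.2 CPM in MIA (log2 change 0.40 ± 0.73 SE, adjusted p = 0.685). Cmpk2, the nucleotide kinase gene next to Rsad2, was at 5.57 to 22.0 and 4.17 to 15.9 CPM (log2 change −0.29 ± 0.58 SE, adjusted p = 0.715), and its change was above 0 with library totals (0.18). In both genes MIA 4 was the lowest of all libraries. Bst2 was at 79.7, 90.9 and 47.2 CPM in control 2 to 4 and 62.0, 45.6, 63.4 and 82.3 CPM in MIA 1 to 4. The groups overlapped (log2 change −0.20 ± 0.27 SE, adjusted p = 0.584), and with library totals its change was 0.24.

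The Ifit genes encode proteins that bind viral RNA, and Ifit2, Ifit3, the paralog Ifit1bl and Ifit1 follow one another on chromosome 1 in RefSeq. The counts of Ifit1 were 238, 580 and 92 in the controls, in the order of their numbers, and 462, 20, 746 and 2 in the MIA rats. MIA 2 and MIA 4 were thus nearly without it, at 1.28 and 0.106 CPM against 7.53 to 51.1 CPM in the other 5 libraries. Ifit3 did not share that pattern, at 23.2, 46.7 and 10.6 CPM in control 2 to 4 and 28.0, 52.9, 134 and 22.4 CPM in MIA 1 to 4, with MIA 2 above all controls (log2 change 1.15 ± 0.70 SE, adjusted p = 0.220). Nor did Ifit2, at 39.1, 66.9 and 26.0 CPM in control 2 to 4 and 32.5, 70.2, 58.9 and 45.02 CPM in MIA 1 to 4, where MIA 2 was the highest library (log2 change 0.23 ± 0.36 SE, adjusted p = 0.629). The fitted change of Ifit1 (log2 change −0.53 ± 1.33 SE, adjusted p = 0.774) averages over these levels and depended on the method: it was −0.06 with library totals and −2.33 with limma-voom, and 0.51 without control 3, uncalled in each. Ifit1bl, not of the 34 and looked up after these values were seen, had counts of 36, 28 and 28 in controls and 94, 88, 1698 and 31 in MIA 1 to 4, so the high library was MIA 3 alone. The authors' counting of reads shared between such copies is not given in the sources used here.

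**Figure D3:**
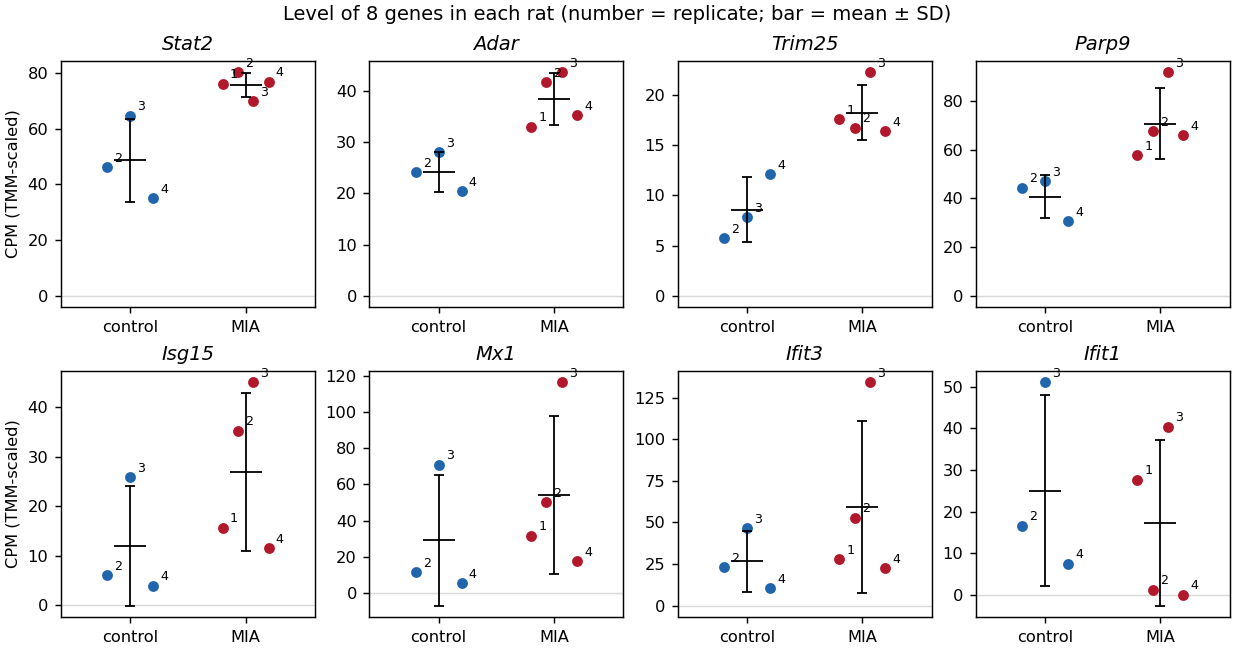
CPM of 8 interferon-stimulated genes in each rat (points, labelled with the replicate number), with mean and SD per group as bars. In the upper row all MIA rats lie above all controls; in the lower row control 3 lies within or above the MIA values, and Ifit1 is near 0 in MIA 2 and MIA 4.

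The guanylate-binding proteins, GTPases that attack vacuoles of intracellular pathogens and respond strongly to interferon gamma, moved in different directions without passing. Gbp2 was at 52.1, 62.6 and 26.2 CPM in control 2 to 4 and 55.7, 89.4, 115 and 60.2 CPM in MIA 1 to 4, with MIA 2 and MIA 3 above all controls and MIA 1 and MIA 4 below control 3 (log2 change 0.77 ± 0.36 SE, adjusted p = 0.116). Gbp5 was at 19.7, 24.5 and 13.3 CPM in control 2 to 4 and 4.61, 21.6, 18.4 and 10.6 CPM in MIA 1 to 4. MIA 1 and MIA 4 were below every control, and no MIA rat exceeded control 3 (log2 change −0.47 ± 0.47 SE, adjusted p = 0.448). The remaining induced genes had positive changes. Ifi27 was at 297, 230.2 and 145 CPM in control 2 to 4 and 317, 322, 514 and 277 CPM in MIA 1 to 4, where MIA 4 alone of the MIA rats lay inside the control range (log2 change 0.68 ± 0.32 SE, adjusted p = 0.127). Ifi35, which binds the partner protein Nmi, had a change of 0.60 ± 0.25 (adjusted p = 0.0841), and with library totals Gbp2, Ifi27 and Ifi35 were called (adjusted p = 0.0338, 0.0370 and 0.0160). Xaf1, which antagonises the apoptosis inhibitor XIAP, had a change of 0.32 ± 0.36 and Ifi44 one of 0.12 ± 0.30 (adjusted p = 0.503 and 0.767).

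The spread of these genes between rats of one group was wide. The median coefficient of variation of the 34 genes was 46.1% in controls and 34.4% in MIA, where the medians of all tested genes, which include genes of lower and higher level, were 18.6% and 26.2%. The highest control exceeded the lowest by more than 2-fold in 22 of the 34 genes (64.7%; 19.7% of all tested genes), and the highest MIA rat the lowest in 21 (61.8%; 40.9%). Control 3 had the highest control value for 31 of the 34 genes, where it was the highest control for 29.6% of all tested genes, and control 4 had the lowest for 30 of the 34 (32.99%). MIA 3 was the highest MIA library for 24 genes (29.5%) and MIA 2 for 9 (28.1%), while MIA 4 was the lowest for 17 (23.2%) and MIA 1 for 15 (20.7%). With library totals control 3 was highest for 30 and MIA 3 for 26 of the 34.

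Relative to the mean of the controls, the median log2 level of the 34 genes was −0.08 in control 2, 0.67 in control 3 and −0.57 in control 4, and 0.36, 0.80, 0.99 and 0.15 in the MIA rats in order. Control 3 therefore lay above MIA 1 and MIA 4 and below MIA 2 and MIA 3, while the same median over all tested genes stayed between −0.02 and 0.09 in all libraries. In 33 other interferon target genes that are not among the 34, control 3 was highest among controls for 18 and control 2 for 15, where control 2 led for 2 of the 34. In these 33 genes control 4 was lowest for 27, and MIA 3 highest among MIA rats for 25. Marker levels of control 3 lay on both sides of the other controls. Its synovial lining markers summed to 5004 CPM, the highest of the 3 (2160 and 2837 CPM in control 2 and control 4), led by Prg4. Of 30 immune markers 10 were highest of the controls in control 3 and 10 lowest, where 29.6% and 29.0% of all tested genes were. Among the highest were Tcf4 at 18.8 CPM (18.2 CPM in control 2), Csf3r at 4.14 CPM (4.09 CPM in control 4) and S100a8 at 2.02 CPM (1.82 CPM in control 2). The others were Ccr9 and the T and NK cell genes Cd3e, Cd3d, Cd8b, Gzmb, Prf1 and Klrd1, each with 15 counts or fewer in control 3. Among the lowest were Csf1r, Cd68 and Mrc1, at 63.5, 15.4 and 34.7 CPM in control 3. Its macrophage markers summed to 195 CPM, the lowest of the 3, and its neutrophil, T and NK cell and plasmacytoid dendritic cell markers to 11.9, 45.4 and 30.4 CPM, within the ranges of 11.9 to 16.8, 43.0 to 59.9 and 29.2 to 38.2 CPM over the controls. Of the T and NK cell sum in control 3, Cd4 held 41.4 CPM. In MIA 3 the neutrophil markers summed to 579 CPM, against 26.5 to 52.4 CPM in the other MIA rats. The T and NK cell markers summed to 150.1 CPM in MIA 3 and 221 CPM in MIA 2. Most of the MIA 2 sum was Cd4, at 203 CPM there and 68.0 CPM in MIA 3. Every other gene of that list was highest in MIA 3, such as Cd8a (24.3 CPM, 2.17 CPM in MIA 2) and Cd3e (8.77 and 0.894 CPM). Markers of plasmacytoid dendritic cells, which make type I interferon, summed to 95.2 CPM in MIA 3 and 102 CPM in MIA 2. Of these, Pld4 (67.7 CPM, 51.1 CPM in MIA 3), Tcf4 and Pacsin1 were higher in MIA 2. Siglech (4.39 CPM, 0.319 CPM in MIA 2), Spib and Ccr9 were higher in MIA 3. The part of these cells in the level of the interferon-stimulated genes was not tested.

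**Figure D4:**
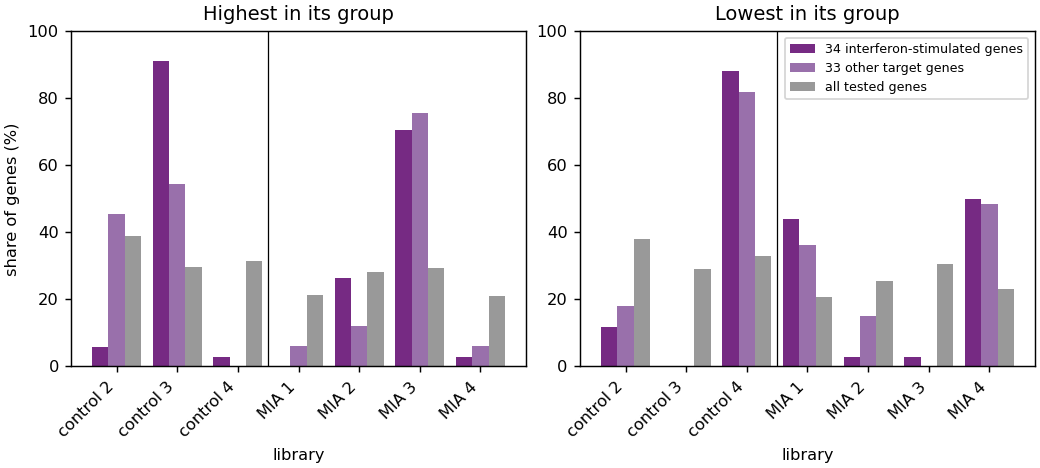
Share of genes (y axis, %) for which each library was the highest (left) or the lowest (right) of its own group, for the 34 interferon-stimulated genes, 33 other target genes and all tested genes. Control 3 was highest for 31 and control 4 lowest for 30 of the 34 genes, and MIA 3 was highest for 24.

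Other genes of the pathway, upstream and downstream, had larger median changes in each list but the ligands. A list of ligands, receptors, inhibitors, induction genes and further targets held 76 genes, of which 65 were found and 61 tested; 26 rose (42.6%, beside 14.7% of the 34 genes and 21.3% of all tested genes) and Mavs fell, with a median log2 change of 0.77. Of the listed interferons, the Ifna genes, Ifnb1 and Ifnl1 were not found in the deposited table. Their transcripts, those of interferon alpha and beta among them, were therefore not measured here. Transcripts of the interferons that were found were scarce. The 4 ligand genes found (Ifng, Ifnk, Ifne and Ifnl3) had 0 counts in every control, which allows up to 0.210 to 0.264 CPM per library by counting error alone, and 27 counts in all MIA libraries together. Ifng, made by T and NK cells, had 0, 9, 1 and 2 counts in MIA 1 to 4, and none of the 4 genes passed the filter.

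Of 10 receptor, JAK and STAT genes 6 rose, where 21.3% of all tested genes were called higher. Ifnar1 and Ifnar2, the chains of the type I interferon receptor, rose 1.75-fold and 1.62-fold (log2 changes 0.80 ± 0.17 and 0.70 ± 0.19, adjusted p = 0.00723 and 0.0188), and Ifnar1 was at 64.3, 58.0 and 51.6 CPM in control 2 to 4 and 89.6, 119, 98.4 and 97.7 CPM in MIA 1 to 4. No MIA rat overlapped the controls in either chain; Ifnar2 lost its call without control 4 (adjusted p = 0.0744). Ifngr2, the signalling chain of the interferon gamma receptor, rose by 0.81 ± 0.17, and Ifnlr1 and Il10rb, which form the receptor for interferon lambda, by 1.90 ± 0.37 and 1.30 ± 0.25 (adjusted p = 0.00723, 0.00530 and 0.00541). Jak2, the kinase of the interferon gamma receptor, rose 3.33-fold (log2 change 1.74 ± 0.34 SE, adjusted p = 0.00564), from 37.9 to 46.3 CPM in controls to 73.9 to 212 CPM in MIA.

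Of 5 inhibitors of the pathway 4 rose (21.3% of all tested genes), with a median log2 change of 1.69 over the 5. Socs3, a suppressor of JAK signalling that interleukin-6 also induces, was at 9.95, 15.1 and 4.18 CPM in control 2 to 4 and 121, 36.8, 72.1 and 83.7 CPM in MIA 1 to 4. The lowest MIA rat was more than 2 times above the highest control, and the rise was 8.06-fold (log2 change 3.01 ± 0.53 SE, adjusted p = 0.00370). Socs1, the main suppressor of interferon gamma signalling, was at 1.12, 1.23 and 0.491 CPM in control 2 to 4 and 11.4, 4.91, 4.06 and 7.65 CPM in MIA 1 to 4. It rose 7.32-fold (log2 change 2.87 ± 0.52 SE, adjusted p = 0.00409), without overlap of the groups. Ptpn6 and Ptpn2, phosphatases that act on JAK and STAT proteins, rose by 1.68 ± 0.27 and 0.66 ± 0.18 (adjusted p = 0.00273 and 0.0187); the call of Ptpn2 was lost without control 2 (0.0653) and without control 3 (0.0746). Ptpn6 is mainly expressed in blood-derived cells, whose macrophage markers were higher in MIA as given above; the part of cell number was not tested.

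Of 13 genes that sense nucleic acid or induce interferons, 6 rose and 1 fell (21.3% and 19.6% of all tested genes). The endosomal receptors Tlr7 and Tlr9 rose by 2.15 ± 0.36 and 2.94 ± 0.60, the factors Irf8 and Irf5 of myeloid cells by 2.34 ± 0.40 and 1.77 ± 0.32, the kinase Ikbke by 1.46 ± 0.25 and the adaptor Myd88 by 0.95 ± 0.18 (adjusted p between 0.00320 and 0.00662). All 6 had no overlap between the groups, where 24.8% of all tested genes had every MIA rat above every control. Mavs, the mitochondrial adaptor through which RIG-I and MDA5 signal, fell: it was at 67.4, 105 and 107 CPM in control 2 to 4 and 21.7, 25.1, 23.1 and 24.3 CPM in MIA 1 to 4. Every MIA rat had less than 0.4 times the level of the lowest control (log2 change −1.98 ± 0.19 SE, adjusted p = 0.000878). The summed skeletal muscle markers, 163000 to 205000 CPM in controls and 819 to 40500 CPM in MIA, separated the groups in the same direction; in MIA 2, which held the least muscle, Mavs was at 25.1 CPM, the highest of the 4 MIA rats, and the part of muscle in the fall was not tested. Irf3 (−0.07 ± 0.27) and Tbk1 (−0.08 ± 0.15), the factor and the kinase that act below these adaptors, did not pass, nor did Tmem173, which encodes STING (0.66 ± 0.40), or Cgas (0.71 ± 0.62), with adjusted p of 0.214 or more.

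**Figure D5:**
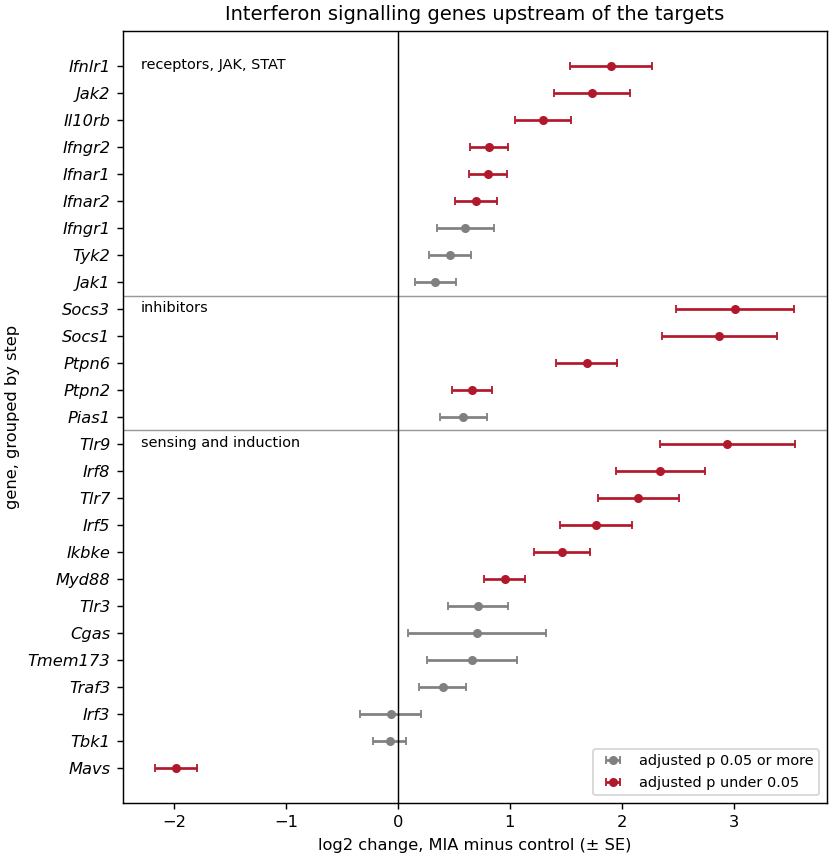
Log2 change, MIA minus control, with standard error (x axis) of interferon receptor, JAK and STAT genes, inhibitors, and sensing and induction genes (y axis, grouped by step). Red marks an adjusted p under 0.05: 6 of 10, 4 of 5 and 7 of 13 genes, with Mavs the one that fell; 1 uncalled gene of the first group is not drawn.

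Of 33 further target genes 10 rose and none fell, where 21.3% of all tested genes were called higher and 19.6% lower. Ifitm1, Ifitm2 and Ifitm3, membrane proteins that block virus entry, rose 7.12-fold, 2.09-fold and 1.99-fold (log2 changes 2.83 ± 0.49, 1.06 ± 0.25 and 0.99 ± 0.28). Lgals3bp, a secreted scavenger receptor protein, rose by 1.59 ± 0.33, Epsti1 by 2.30 ± 0.43, the GTPase Ifi47 by 1.42 ± 0.33, the nuclear body proteins Pml and Sp110 by 0.84 ± 0.22 and 0.87 ± 0.22, the MHC class I activator Nlrc5 by 1.31 ± 0.44 and the immunoproteasome subunit Psmb10 by 0.93 ± 0.31 (adjusted p from 0.00358 to 0.0449). Every MIA rat was above every control in all 10, and in 12 of the 33, where this held for 24.8% of all tested genes. The Ifitm2 and Ifitm3 calls were lost without control 3 (adjusted p = 0.0570 and 0.0684) and without control 4 (0.0563 and 0.0926), that of Pml without control 2 (0.0582) or 4 (0.0679), that of Sp110 without control 4 (0.0615), and those of Nlrc5 and Psmb10 without any one control (0.0706 to 0.140 and 0.0595 to 0.152). Without a single MIA library Nlrc5 was lost for MIA 1, 2 or 3 (0.0693, 0.0537 and 0.0882) and Psmb10 for MIA 1 or 3 (0.0810 and 0.0646). Cxcl10, the chemokine most often read as a marker of interferon, was at 2.31, 31.1 and 0.409 CPM in control 2 to 4 and 5.93, 41.2, 19.9 and 3.96 CPM in MIA 1 to 4. Control 3 and MIA 2 were the high libraries, and the change did not pass (log2 change 0.66 ± 1.24 SE, adjusted p = 0.692).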

How the data were processed

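RNA-seq of synovium from 3 untreated and 4 MIA-injected rats was analysed, with groups and replicate numbers taken from the labels and libraries made from 1.5 µg of RNA each. The deposited table holds raw counts and FPKM per gene and library, per the file headers. Per the submitters' processing notes, HISAT2, HTSeq 0.11.2, DESeq2 1.26.0 and the build Rnor_6.0 were used, with no role stated. The annotation release was not given in the sources used here, nor was the strand setting, which leaves counts of overlapping or near-identical genes uncertain. The deposited FPKM values equal counts over gene length and column total, with 1 length for 18593 of 18593 genes counted in 2 or more libraries (tolerance 1e-06); these lengths gave CPM per kilobase.

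Counts were tested in R 4.3.3 with edgeR 4.0.16 (filterByExpr, TMM factors, quasi-likelihood F test, Benjamini-Hochberg adjustment over 14054 genes; common biological coefficient of variation 36.7%), after a test on simulated data. The SE is the absolute log2 change over the square root of F. Members and lists were chosen with earlier results of these data known. Of 76 pathway genes 63 were matched by symbol and 2 by synonym; the other 11 were not analysed here. The values of 1 uncalled gene of the receptor, JAK and STAT list, which its counts include, are not reported here. Any of the 34 genes may be named, with values in each library for genes called, without overlap or highest per length; other genes given in full were chosen after their values were seen. Upstream genes are named where called, with the 10 called further targets of smallest p; uncalled ones were chosen after their values were seen. The replicate numbers were not treated as pairs. Alternatives were other scalings, DESeq2 1.42.0, limma 3.58.1 (voom, or log2 of FPKM plus 1 or 0.1), other filters, a replicate block and leaving out libraries. Figures used Python 3.11.15 and matplotlib 3.10.9.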

Additional observations from a re-analysis of the deposited data

Results flagged for a closer look

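Parp14 reached 54.05 CPM in MIA 3, while MIA 1, MIA 2 and MIA 4 held 19.0 to 23.5 CPM. Herc6 reached 37.7 CPM in MIA 3, while the same 3 rats held 17.2 to 19.1 CPM. In each case the gap between MIA 3 and the nearest MIA rat took up most of the range of the group (ratios of 0.873 for Parp14 and 0.905 for Herc6, above Dixon's 95% critical value for 4 samples). Chance flags about 1 in 20 groups, and 7.66% of all tested genes were flagged in the MIA group, against 2 of the 34 genes here.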

How the results depend on the processing

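Median-of-ratios factors, TMM factors without muscle, blood and mitochondrial genes, DESeq2 and the stricter filter left each of the 34 genes on its side of 0 and kept the 5 calls; DESeq2 added Oas2 and the stricter filter Eif2ak2. With no filter 4 of the 5 calls remained, without Stat2. With library totals, limma on log2(FPKM + 1) and limma on log2(FPKM + 0.1), 13 of the 34 genes (38.2%) were called higher in each case, and 42, 38 and 38 of the other pathway genes. Of all tested genes 37.4%, 35.3% and 36.6% were called higher, so the share of the 34 was close to that of all genes. The median of the 34 genes was then 1.06, 0.97 and 1.05; the median of all genes moved too, to 0.51, 0.36 and 0.47. Those scalings put 0.36, 0.54 and 0.62 on Mx2, 0.18, 0.14 and 0.19 on Cmpk2 and 0.24, 0.26 and 0.27 on Bst2, all uncalled and negative with TMM. With limma-voom Mx2 was at 0.21, Parp14 lost its call (adjusted p = 0.0629) and Eif2ak2 and Oas2 gained one.

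With the replicate block, 15 of the 34 genes (44.1%, beside 16.4% of all tested genes) were called higher, 4 of the 5 among them (not Stat2, adjusted p = 0.0882), with Isg15, Mx1 and Ifit3 added, Mx2 at 0.38, Ifit1 at −2.73 (uncalled, adjusted p = 0.0981), and 4555 genes called in all. Deviations of same-numbered rats correlated at 0.268, 0.109 and 0.0432 for numbers 2, 3 and 4. Control 2 and control 3 correlated best with the MIA rat of their own number (next best 0.0388 and 0.089), and control 4 with MIA 3 (0.206). The labels do not say that the numbers pair rats, and MIA 1 has no control of its number. The numbers were therefore not taken as pairs.

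Leaving out 1 library gave 3399 to 5724 called genes, 1 to 8 of the 34 called higher, and a median of the 34 genes from 0.35 without control 4 to 0.90 without control 3. Pathway genes called higher ran from 20 without control 4 (beside 11.3% of all tested genes) to 32 without MIA 4 (beside 20.6%). Uncalled changes near 0 turned sign: Mx2 ranged from −0.51 to 0.91, Cmpk2 from −0.66 to 0.49, Ifit1 from −1.37 to 0.51, Herc6 from −0.22 to 0.75, Dtx3l from −0.085 to 0.44, Ifit2 from −0.045 to 0.66, Rsad2 from −0.042 to 0.97 and Ifi44 from −0.076 to 0.42. Without control 3 and MIA 3 together, chosen after the data were seen, 3619 genes and 8 of the 34 were called, 3 of them shared with the 5 (Stat2, Adar and Parp14), Mx2 was at 0.78 and Cmpk2 at 0.16. The cause of these changes was not tested. With 3 control rats that differ up to 28.0-fold in a gene (Zbp1), sample number and spread limit what could be called.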
